A study of Mus musculus with 6 samples.

Results

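Transcripts of mitochondrial carriers and of the mitochondrial protein import machinery were measured by RNA sequencing in the mouse neural progenitor line C17.2, an established cell line. Members were chosen by name, as every listed transcript whose gene name begins with Slc25a, Timm or Tomm. They comprise 35 of the 6462 gene names listed: 18 Slc25a carriers, 10 Timm genes and 7 Tomm genes, carried by 66 transcripts. These fall at 34 loci, 17 with carriers and 17 with import subunits, because Slc25a5 and Slc25a43 share 1 assembled locus. GENCODE M21, a mouse annotation, holds 73 protein-coding genes with these name starts (47 Slc25a, 16 Timm and 10 Tomm); the genes without a row here, among them Slc25a28, Slc25a37, Slc25a38, Timm9, Timm10 and Timm22, were not analysed here.

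The line is labelled as derived from CD1 and C57BL/6 mice, and no allele or transgene is given as differing between groups. Control cells were grown in DMEM/F12 with 10% fetal bovine serum. The second group was treated with heme, and the labels state no dose, duration or medium for it. The third was kept in a neural induction medium of Knockout DMEM with GlutaMAX, N2 supplement and 10 ng/ml of the neurotrophin BDNF, for a time that is not given; this medium and the control medium differ in base, serum and growth factor together, and these cannot be told apart. Each group has 2 labelled biological replicates. All groups share 1 cell line, so no separate animals stand behind the replicates, and p-values measure the spread between these libraries.

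Slc25a proteins are carriers of the inner mitochondrial membrane that exchange nucleotides, phosphate, organic acids, amino acids and cofactors between cytosol and matrix. Nearly all mitochondrial proteins, the carriers included, are made in the cytosol and enter through the TOM complex of the outer membrane; the TIM23 complex then takes proteins with a cleavable presequence into the matrix or inner membrane, and the small TIM chaperones guide carriers across the intermembrane space to the TIM22 complex. In neural progenitors and neurons these carriers support oxidative metabolism and the malate-aspartate shuttle. Not every gene with these name starts is a mitochondrial carrier or import subunit: Slc25a17 is a peroxisomal carrier of cofactors, and Timmdc1 is an assembly factor of respiratory complex I. Both are kept by name in all counts, sums and medians, Slc25a17 with the carriers and Timmdc1 with the import subunits.

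Levels are in FPKM (fragments per kilobase of transcript per 1000000 mapped fragments), summed over all listed transcripts of a locus. Depth was even, at 4.14 to 4.56 mapped gigabases and 398224 to 411657 FPKM in all per library, and no counting interval can be had from FPKM. The deposited heme replicate 2 column equals the heme replicate 1 column times a factor of 1.25 to 1.50 at each of the 13963 transcripts above 0, with all 1150 zeros shared, so both columns were taken as 1 sample, represented by replicate 1. Comparisons therefore rest on 2 control libraries, 1 heme library and 2 neural induction libraries, and a heme difference has no replicate check of its own. Control replicate 2 was unlike the rest: Hmox1, the heme-degrading enzyme, was at 222 FPKM there and at 43.7 to 79.4 in the other 4, and the proliferation marker Mki67 was at 15.7 FPKM there against 28.2 to 33.8. Of the defining markers, 3 of 5 neural progenitor genes were listed (Nes at 108 to 132 FPKM, Sox2 at 13.6 to 19.8, Vim at 663 to 798) and 2 of 5 neuronal genes (Tubb3 at 11.3 to 14.0, Map2 at 10.4 to 18.6). None of the 3 astrocyte, 5 erythroid or 3 microglial markers was listed.

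The smallest p-values among the members, against control, came from 1 locus on the X chromosome that holds Slc25a5, an ADP/ATP carrier, and Slc25a43, a carrier without an assigned substrate. Both genes lie on the plus strand, Slc25a43 upstream, and the listed transcripts start near either of the annotated starts. The 250 bases before each start are shown because the transcripts that differed between groups begin at these different places; the sequences are those of RefSeq on GRCm38.p6, 5′ to 3′ on the plus strand, at chrX:36743382-36743631 for Slc25a43 and chrX:36795347-36795596 for Slc25a5. Capitals mark the single match among 7 motifs searched, an antioxidant response element (TGACNNNGC), in the Slc25a5 sequence.
Slc25a43 upstream: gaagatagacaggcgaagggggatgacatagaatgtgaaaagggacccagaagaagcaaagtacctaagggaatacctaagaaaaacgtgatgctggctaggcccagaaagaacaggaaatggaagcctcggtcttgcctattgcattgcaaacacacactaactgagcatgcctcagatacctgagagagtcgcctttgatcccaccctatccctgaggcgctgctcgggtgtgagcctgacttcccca
Slc25a5 upstream: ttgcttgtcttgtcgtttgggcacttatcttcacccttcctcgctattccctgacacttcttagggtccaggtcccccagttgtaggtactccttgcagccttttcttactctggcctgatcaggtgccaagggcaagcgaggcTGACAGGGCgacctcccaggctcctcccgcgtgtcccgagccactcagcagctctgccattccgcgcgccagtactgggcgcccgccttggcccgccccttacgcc

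At the Slc25a5 and Slc25a43 locus the FPKM sum was 191 and 192 in the control libraries, 302 in the heme library, and 319 and 305 in the neural induction libraries. The 2 controls lay together, and the heme and induction libraries lay together above them with no overlap. On the log2(FPKM + 1) scale the heme difference was 0.65 ± 0.078 (SE; limma adjusted p = 0.526) and the induction difference 0.70 ± 0.063 (limma adjusted p = 0.363), so neither passed the threshold of 0.05 over the 7039 loci tested. Unadjusted, these were the 9th and 4th smallest p-values of all loci, at 0.000672 and 0.000206. The 2 comparisons share the control libraries.

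Within that locus the 4 listed transcripts did not move together. A long assembled transcript with no gene name, of 8 exons and 2011 bases from 36743711 to 36798807 on GRCm38, spans both genes; it was at 88.5 and 114 FPKM in the controls and was listed at 0 in the heme library and in both induction libraries. The annotated Slc25a5 transcript ENSMUST00000016463 (4 exons, 1240 bases, 36795651 to 36798807) was at 60.9 and 18.6 FPKM in the controls, 179 with heme, and 197 and 182 after induction. These 2 transcripts thus exchanged places as the leading transcript between the controls and the other 3 libraries. A shorter Slc25a5 transcript annotated as a retained intron, ENSMUST00000126608 (2 exons, 989 bases), was at 40.7 and 59.2 FPKM in the controls and at 119, 118 and 120 in the heme and induction libraries. Slc25a43 itself, by ENSMUST00000047655 (5 exons, 1111 bases), stayed low at 1.22 and 0.889 FPKM in the controls against 3.42, 3.62 and 3.35 FPKM.

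**Figure D1:**
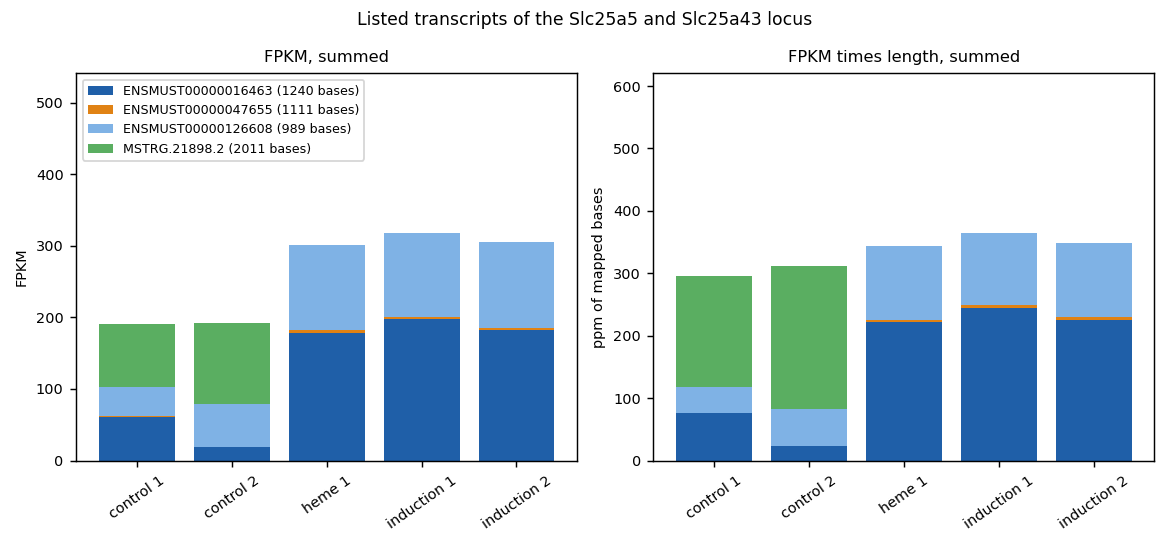
FPKM of the 4 listed transcripts of the Slc25a5 and Slc25a43 locus in each of the 5 libraries, stacked, beside the length-weighted sum in ppm of mapped bases (bases per 1000000 mapped bases). The long unnamed transcript (88.5 and 114 FPKM) appears in the controls alone, and the sum that does not depend on transcript length separates the groups less than the FPKM sum does.

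Because FPKM divides by transcript length, assigning the same reads to a longer transcript lowers the sum. FPKM times length, summed over a locus, gives the bases mapped to it per 1000000 mapped bases (ppm) and does not depend on that assignment; this quantity was chosen after the data were seen. On it the locus was at 295 and 311 in the controls, 344 with heme, and 365 and 348 after induction. The order of the groups was the same and they still did not overlap, but the log2 differences were 0.18 ± 0.079 for heme (limma adjusted p = 0.996) and 0.23 ± 0.065 for induction (limma adjusted p = 0.940), against 0.65 and 0.70 on FPKM. With FPKM summed over the named transcripts alone, which leaves out the long one, the log2 differences were 1.73 for heme and 1.78 for induction. Their size thus depended on the quantity and the transcripts summed. The authors' deposited tables, whose fold changes match replicate 1 against control replicate 1 within 0.1 for 100% of transcripts over 5 FPKM, list the long transcript at a log2 fold change of -9.48 for heme and -9.48 for induction, and ENSMUST00000016463 at 1.53 and 1.67.

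Among the other carriers of nucleotides and phosphate, Slc25a4 and Slc25a3 were the most abundant. Slc25a4, the ADP/ATP carrier of heart, muscle and brain (chr8:46206797-46211284, minus strand), was at 209 and 198 FPKM in the controls, 203 with heme, and 211 and 201 after induction. Slc25a3, the phosphate carrier that supplies ATP synthase (chr10:91116574-91124059, minus strand), was at 197 and 236 FPKM in the controls, 206 with heme, and 214 and 202 after induction. For both genes the heme and induction libraries lay inside the control range or within 3 FPKM of it. Induction minus control was 0.019 ± 0.070 on the log2 scale for Slc25a4 and -0.051 ± 0.11 for Slc25a3. Slc25a24, the calcium-regulated ATP-Mg/phosphate carrier, ranged from 43.1 to 47.5 FPKM. Of the pyrimidine nucleotide carriers, Slc25a36 ranged from 11.5 to 13.6 FPKM and Slc25a33 from 7.47 to 10.4, each with heme below both controls and the induction range overlapping that of the controls. At Slc25a36 an unnamed assembled transcript was at 12.6 and 5.08 FPKM in the controls, 5.94 with heme, and 12.1 and 3.82 after induction. In the same order ENSMUST00000085206 was at 0.556, 5.82, 5.60, 1.13 and 5.08 FPKM, so the leading transcript differed between replicates. Over named transcripts alone the Slc25a36 heme difference was 0.78, against -0.20 on the full sum. In ppm of mapped bases its heme value was 56.3, below the controls at 60.3 and 64.3.

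Slc25a39, which imports glutathione into mitochondria and whose loss impairs iron-sulfur proteins, was at 116 and 113 FPKM in the controls, 107 with heme, and 99.6 and 97.9 after induction. Both induction libraries lay below heme and heme below both controls. The induction difference was -0.21 ± 0.066 (limma adjusted p = 0.935), and the heme difference -0.099 ± 0.080. The FPKM of 1 short transcript, ENSMUST00000124755 (642 bases, chr11:102404854-102407946, minus strand), went from 38.6 and 38.0 in the controls to 26.8 with heme and 21.5 and 14.4 after induction. In ppm of mapped bases the Slc25a39 locus was at 138, 134, 132, 129 and 132 in the same order, and the induction difference was -0.058 ± 0.064.

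The carriers of the malate-aspartate shuttle and of organic acids differed little between groups. Slc25a11, the oxoglutarate/malate carrier, was between 20.9 and 22.5 FPKM in all 5 libraries; its exons overlap Rnf167 on the other strand, and the kit did not mark strand. Slc25a13, an aspartate/glutamate carrier, was at 14.4 and 15.3 FPKM in the controls, 13.7 with heme, and 15.4 and 15.5 after induction. An unnamed assembled transcript led at Slc25a13 in all 5 libraries. The log2 heme difference was -0.10 with that transcript in the sum and 1.13 over the named transcripts alone. Slc25a12, the aspartate/glutamate carrier of brain and muscle, was at 27.1 and 18.2 FPKM in the controls, 26.0 with heme, and 27.8 and 20.3 after induction, so 1 library of each replicated group was low. A different transcript was absent in each of the low libraries. ENSMUST00000147553 (994 bases, annotated as a processed transcript) led in the other 4 libraries, at 13.3 FPKM in induction replicate 2, and was listed at 0 in control replicate 2. ENSMUST00000184169 (2392 bases, annotated as a nonsense-mediated decay target) was at 14.5 FPKM in control replicate 2 and was listed at 0 in induction replicate 2. In ppm of mapped bases the 5 Slc25a12 values lay between 55.6 and 59.9. Slc25a1, the citrate carrier that feeds lipid synthesis, was at 29.4 and 25.2 FPKM in the controls, 30.3 with heme, and 29.3 and 31.5 after induction (difference 0.15 ± 0.12). Slc25a10, the dicarboxylate carrier, was at 7.91 and 11.2 FPKM in the controls, 9.69 with heme, and 11.3 and 11.0 after induction.

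The carriers of glutamate and cofactors differed widely in level. Slc25a51, which carries NAD+ into mitochondria, was at 11.7 and 4.31 FPKM in the controls, 5.60 with heme, and 3.46 and 3.71 after induction. For Slc25a51, control replicate 1 alone was high and the induction replicates were alike. The induction difference was -0.84 ± 0.47 against both controls. It was -1.47 with control replicate 2 left out and -0.21 with control replicate 1 left out. Slc25a22, a glutamate/proton symporter, was at 4.61, 6.37 and 6.04 FPKM in the control and heme libraries and at 8.18 and 0.771 FPKM after induction, all of it from ENSMUST00000106007 in the former and nearly all from ENSMUST00000124266, annotated as a nonsense-mediated decay target, in the induction libraries. The 2 induction libraries differed by more than the controls did, and the induction difference was -0.67 ± 0.83. Slc25a16, linked to coenzyme A, was at 9.29 and 0.057 FPKM in the controls, 2.43 with heme, and 3.89 and 2.88 after induction. Of these sums an unnamed assembled transcript gave 6.81 and 0 FPKM in the controls, 2.40 with heme, and 3.89 and 2.88 after induction. The named transcript ENSMUST00000144459 was at 2.48 and 0.057 FPKM in the controls, 0.035 with heme, and 0 in both induction libraries. Slc25a17, the peroxisomal carrier, held between 39.6 and 42.5 FPKM, with both induction libraries above both controls by less than 3 FPKM.

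Among the TOM receptors, which recognise incoming proteins, Tomm22 was at 89.3 and 83.6 FPKM in the controls, 91.4 with heme, and 97.0 and 97.3 after induction. Both induction libraries lay above heme, which lay above both controls; the induction difference was 0.17 ± 0.072 (limma adjusted p = 0.935). Tomm70a, the receptor favoured by carriers, ranged from 75.8 to 81.8 FPKM, and its induction libraries were at 80.5 and 81.8 against 78.0 and 79.4 in the controls. Tomm20, the presequence receptor, ranged from 36.4 to 41.9 FPKM, with heme lowest. Tomm40, the channel of the complex, was at 43.6 and 49.1 FPKM in the controls, 45.9 with heme, and 51.2 and 47.8 after induction, and its groups overlapped.

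The small TOM subunits, which help assemble and stabilise the complex, differed from one another. Tomm7 was even, from 33.6 to 36.2 FPKM. Tomm6 was at 38.4 and 38.4 FPKM in the controls, 48.3 with heme, and 41.7 and 40.4 after induction. The heme library was the highest of the 5 for Tomm6, with a difference of 0.32 ± 0.096 (limma adjusted p = 0.998); the locus also holds a Gm21981 transcript at 7.73, 7.55, 10.7, 7.57 and 8.18 FPKM, and its exons overlap Usp49 on the other strand. Tomm5 was at 53.8 and 20.4 FPKM in the controls, 53.9 with heme, and 23.8 and 16.1 after induction. Control replicate 1 and heme were thus alike for Tomm5, and control replicate 2 lay with the induction libraries. The split came from ENSMUST00000107810 (2 exons, 639 bases, chr4:45105208-45108114, minus strand), at 36.5 and 0.810 FPKM in the controls, 40.6 with heme, and 0.795 and 0.625 after induction, and it stayed as wide in ppm of mapped bases (33.8, 12.3, 34.8, 13.7 and 10.1). Because of it, the Tomm5 differences carried large errors: 0.68 ± 0.61 for heme and -0.73 ± 0.50 for induction. These became 0.0031 and -1.41 (both log2) without control replicate 2. Without control replicate 1 they became 1.36 and -0.051, so both depended on which control was kept.

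**Figure D2:**
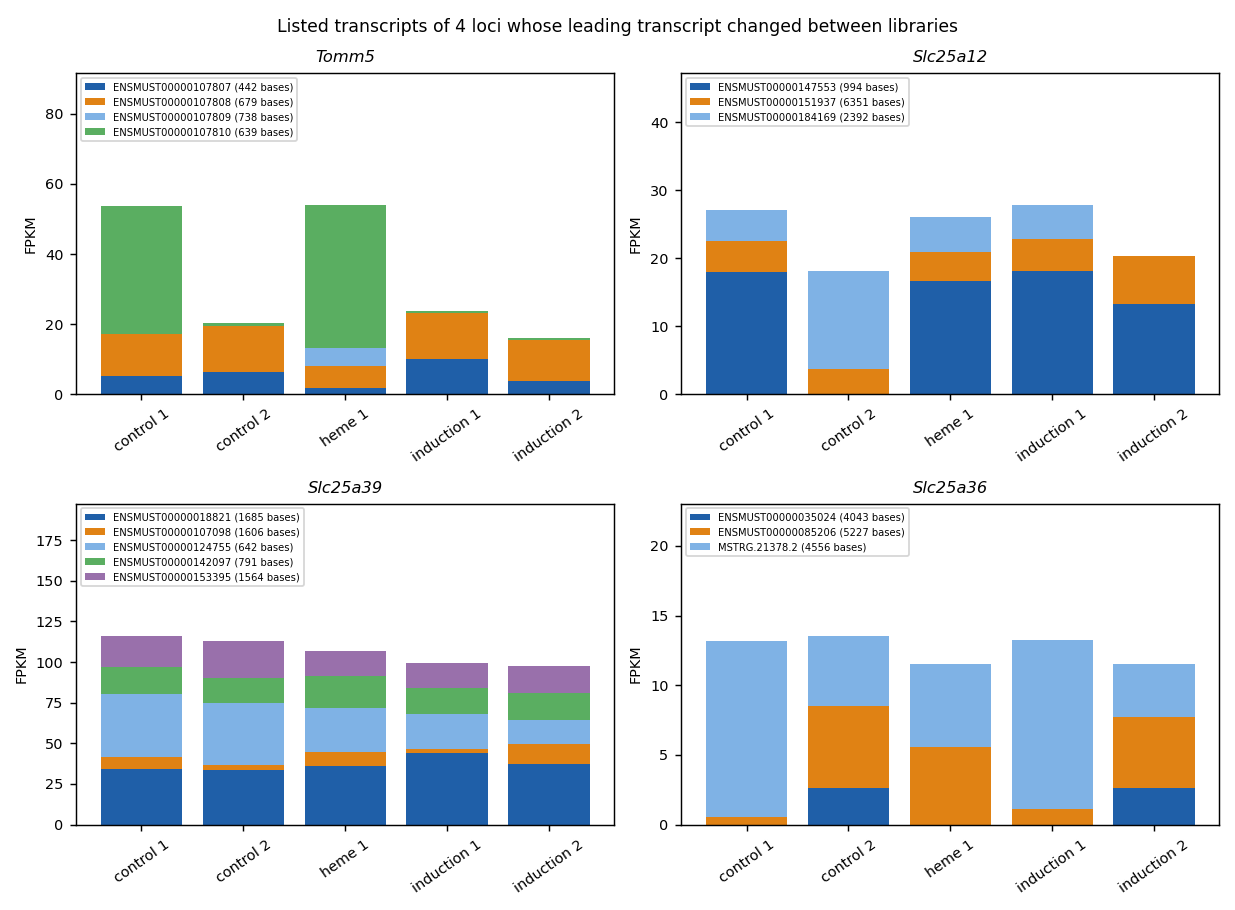
FPKM of each listed transcript of Tomm5, Slc25a12, Slc25a39 and Slc25a36 in each of the 5 libraries, stacked. The Tomm5 transcript ENSMUST00000107810 is at 36.5 and 40.6 FPKM in control replicate 1 and heme and under 1 FPKM in the other 3 libraries, and at Slc25a12 the transcript ENSMUST00000147553 is listed at 0 in control replicate 2.

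Of the TIM23 complex, Timm23, the channel subunit, was at 60.8 and 61.3 FPKM in the controls, 57.8 with heme, and 64.3 and 58.2 after induction. Its partner Timm17b was low, at 4.08 and 3.54 FPKM in the controls, 2.69 with heme, and 4.77 and 6.54 after induction. Timm17b had the lowest value with heme and the highest after induction, with an induction minus heme difference of 0.84 ± 0.33 (limma adjusted p = 1), and its only listed transcript, ENSMUST00000150541, is annotated as a retained intron. Timm50, the receptor of the complex, ranged from 19.3 to 23.9 FPKM, and control replicate 2 was the highest. Timm44, which anchors the import motor, was at 15.5 and 15.2 FPKM in the controls, 15.6 with heme, and 20.9 and 15.7 after induction. Only 1 induction library was thus high. In ppm of mapped bases that library stood apart less, with values of 36.2, 34.8, 35.6, 41.0 and 36.7 in the same order. Timm21, which links TIM23 to the TOM complex, ranged from 7.67 to 9.08 FPKM.

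Of the 4 small TIM chaperones listed, Timm13, Timm8a1 and Timm8b differed little between libraries, and Timm10b was low and varied more. Timm13 was at 44.8 and 46.4 FPKM in the controls, 46.1 with heme, and 50.8 and 52.1 after induction. Both induction libraries lay above all 3 others for Timm13, with an induction difference of 0.17 ± 0.076 (limma adjusted p = 0.935); its exons overlap Tmprss9 on the other strand. Its partner Timm8a1 ranged from 25.0 to 28.8 FPKM, and Timm8b, which overlaps Nkapd1, from 40.6 to 46.5. Timm10b, the small TIM bound to the TIM22 complex, was at 5.83 and 7.86 FPKM in the controls, 6.30 with heme, and 8.26 and 11.2 after induction (difference 0.45 ± 0.24), mostly from a transcript annotated as a nonsense-mediated decay target. Timmdc1, the complex I assembly factor, was at 19.0 and 16.5 FPKM in the controls, 19.4 with heme, and 19.7 and 19.7 after induction.

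**Figure D3:**
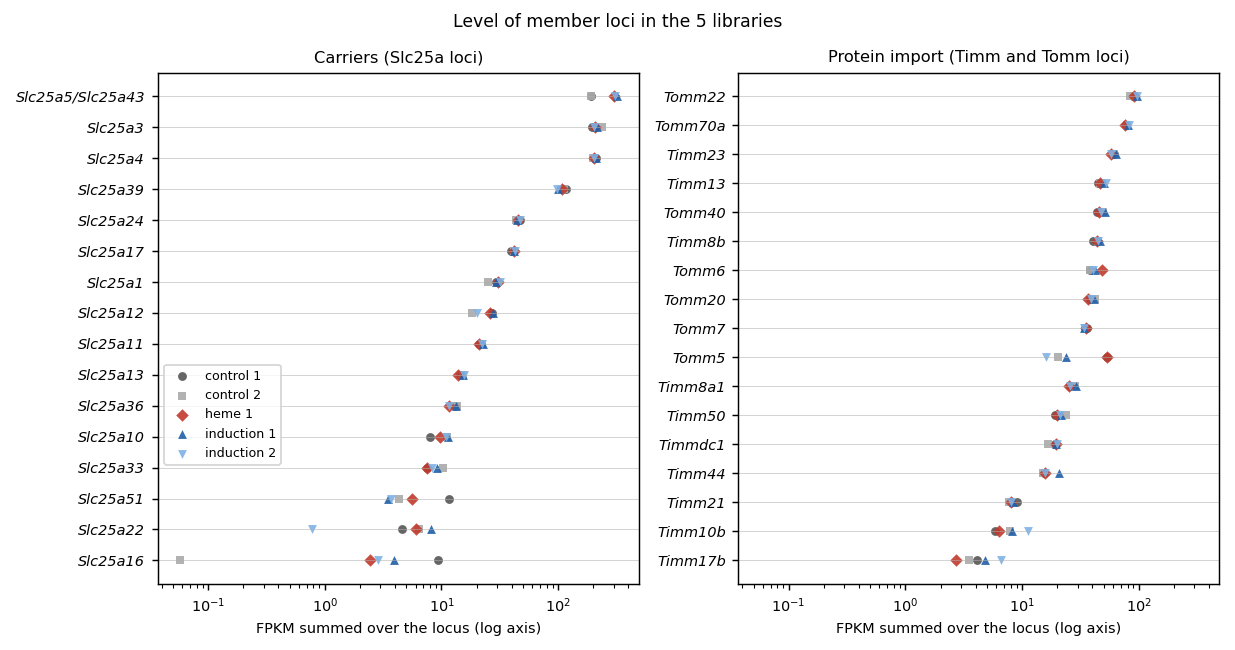
FPKM sum of 33 member loci in each of the 5 libraries on a log10 axis, carriers beside import subunits, 1 point per library. Most loci hold their points close together, while Slc25a16, Slc25a22, Slc25a51 and Tomm5 spread widely.

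No member locus passed the threshold in any of the 3 comparisons. In RNA from whole cultures, fewer cells of a kind and less RNA per cell cannot be told apart. The background was equally sparse: limma called 3 loci with heme (0.0426% of 7039), 1 after induction (0.0142%) and 4 for induction against heme (0.0568%), and no member was among them. At an unadjusted p under 0.05, limma gave 253, 215 and 238 of all loci in the same order, and 2 (Slc25a5 with Slc25a43, and Tomm6), 2 (Slc25a5 with Slc25a43, and Slc25a39) and 0 of the member loci. Applied to ppm of mapped bases, where 6960 loci were tested, limma called 0 loci in each comparison. At an unadjusted p under 0.05 it gave 283, 216 and 249 of all loci. Of the member loci it gave 1 (Tomm6), 1 (Slc25a5 with Slc25a43) and 1 (Tomm6) in the same order.

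After induction the import loci had a higher median than the carriers and than all loci, a difference described here with no test. The median log2 difference, induction minus control, was 0.034 over the 17 carrier loci and 0.086 over the 17 import loci, beside 0.019 over all loci; 10 carriers and 13 import loci had a value above 0, beside 3851 of 7039. Both induction libraries lay above both controls at 3 of 17 carrier loci and at 8 of 17 import loci (Timm10b, Timm13, Timm17b, Timm44, Timmdc1, Tomm22, Tomm6 and Tomm70a), beside 18.2% of all loci. They lay below both controls at 2 carrier loci (Slc25a39 and Slc25a51) and 1 import locus (Tomm7), beside 13% of all loci. The import median went from 0.030 without control replicate 1 to 0.12 without neural induction replicate 2, and was 0.045 without neural induction replicate 1. The carrier median went from -0.019 without control replicate 2 to 0.056 without neural induction replicate 2. The induction libraries were not alike. Against the median of the other libraries, the median import locus was at 0.094 (log2) in induction replicate 1 and 0.0090 in induction replicate 2. It was at -0.065 in control replicate 1, -0.014 in control replicate 2 and -0.072 with heme.

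With heme the median log2 differences were 0.0011 for carriers and -0.011 for import loci, beside -0.0035 for all loci. The heme library lay above both controls at 2 carrier and 5 import loci, beside 25.5% of all loci, and below both at 6 carrier and 5 import loci, beside 31.1%. Induction against heme gave medians of 0.021 for carriers and 0.091 for import loci, beside 0.023 for all loci. Both induction libraries lay above heme at 7 carrier and 14 import loci, beside 40.3% of all loci, and below it at 2 carrier loci and 3 import loci, the small subunits Tomm5, Tomm6 and Tomm7, beside 27.3%. The heme value in each of these counts is 1 library, shared by all loci, and the loci of a list are not replicates of a condition. Without neural induction replicate 1 the import median for induction against heme was 0.044, and without neural induction replicate 2 the carrier median was 0.090.

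**Figure D4:**
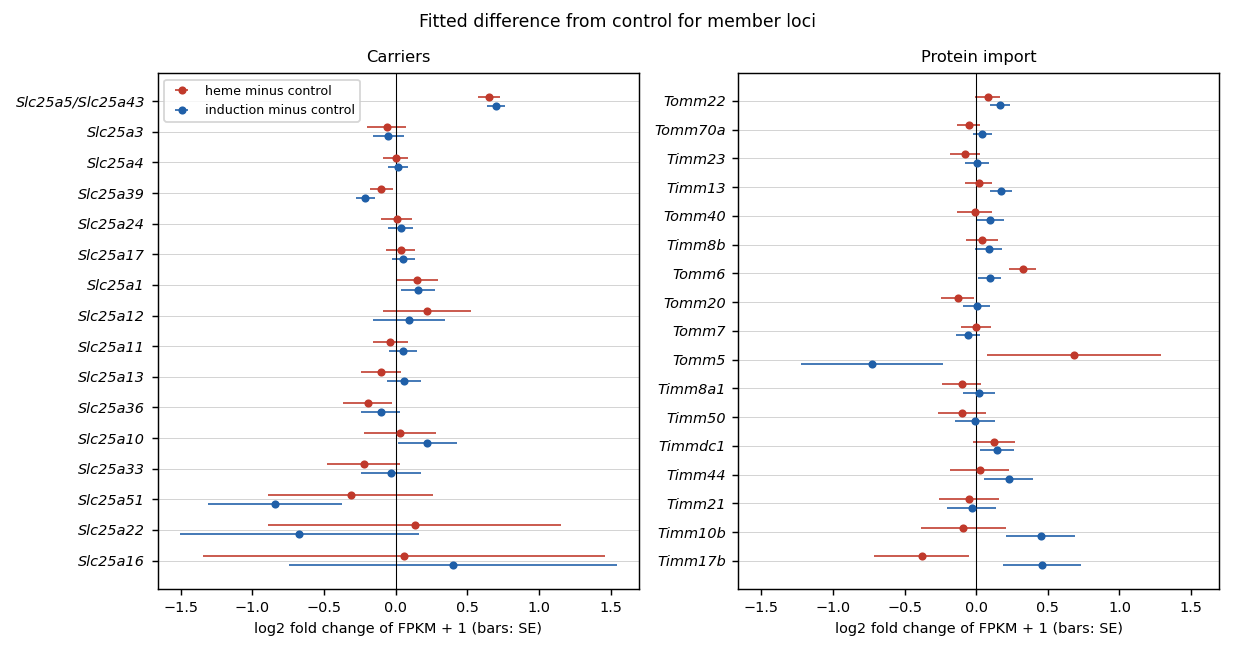
Log2 difference of 33 member loci from control, with heme and after induction, with bars of 1 standard error from the limma fit, carriers beside import subunits. The Slc25a5 and Slc25a43 locus stands at 0.65 and 0.70 for heme and induction with short bars, and most other loci lie near 0 or carry bars that reach it.

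Summed over the 17 loci, carriers were at 951 and 955 FPKM in the controls, 1043 with heme, and 1080 and 1027 after induction, and import subunits at 622, 603, 632, 643 and 619 FPKM. On FPKM, the carrier sums of the heme and induction libraries lay above both controls, and those of the import subunits overlapped. In ppm of mapped bases the carrier groups overlapped, at 1745, 1756, 1748, 1822 and 1744 in the same order. The import sums in ppm were 1056, 1065, 1053, 1109 and 1081, with both induction libraries above the others. Without the Slc25a5 and Slc25a43 locus the carriers summed to 759 and 763 FPKM in the controls. They summed to 742 FPKM with heme, and 761 and 722 after induction. The order of the carrier groups on FPKM thus rested on that 1 locus. Without Tomm5 the import sums were 568 and 582 FPKM in the controls, 578 with heme, and 619 and 603 after induction, with both induction libraries above the other 3. The ratio of carriers to import subunits was 1.53 and 1.58 in the controls, 1.65 with heme, and 1.68 and 1.66 after induction on FPKM; in ppm of mapped bases it was 1.65, 1.65, 1.66, 1.64 and 1.61. Without the Slc25a5 and Slc25a43 locus the order was the opposite: the FPKM ratio was 1.22 and 1.27 in the controls, 1.17 with heme, and 1.18 and 1.17 after induction. In ppm of mapped bases, again without that locus, it was 1.37 and 1.36 in the controls, 1.33 with heme, and 1.31 and 1.29 after induction.

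The spread of the members over libraries is given beside that of all loci as a description, with no test. The sets were not matched for level. All loci tested include any that reached 1 FPKM in 2 libraries, while the mean over the 5 libraries ran from 3.71 to 262 FPKM among the members. The ratio of the highest to the lowest of the 5 libraries had a median of 1.17 over import loci, 1.25 over carriers and 1.33 over all loci tested. It was under 1.2 at 11 of 17 import loci and 8 of 17 carriers, beside 30.4% of all loci, and over 2 at 2 import loci and 3 carriers, beside 18.8%. The steadiest carrier was Slc25a4, with a ratio of 1.07, and the least steady import locus Tomm5, with 3.34. The 13 member loci with 1 listed transcript had a median ratio of 1.15 and the 21 with several 1.25; in ppm of mapped bases the latter was 1.18.

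**Figure D5:**
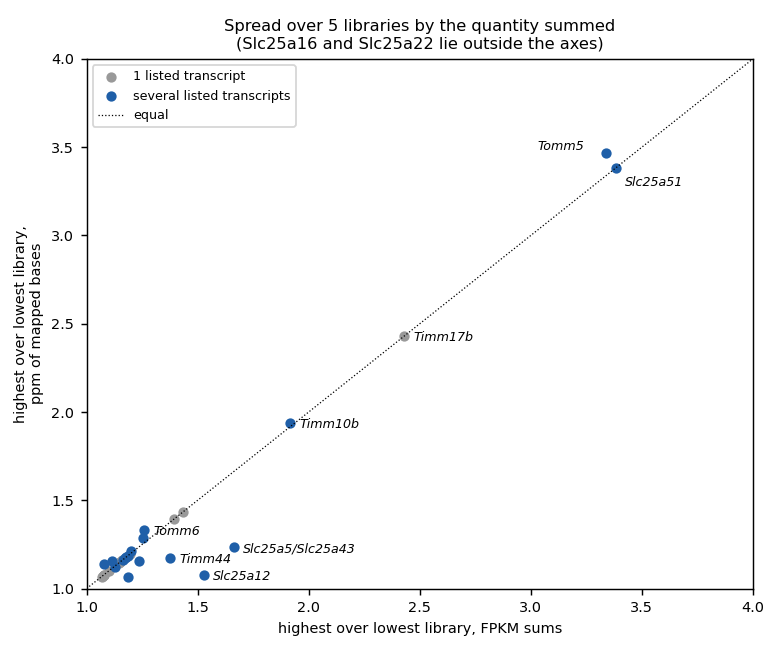
Ratio of the highest to the lowest of the 5 libraries for 33 member loci, from FPKM sums on the horizontal axis and from ppm of mapped bases on the vertical axis, for loci with 1 and with several listed transcripts. Slc25a5 with Slc25a43, Slc25a12 and Timm44 lie below the line of equality, Tomm5 and Slc25a51 lie near it, and Slc25a16 and Slc25a22 are outside the axes.

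Other genes of the import and exchange pathway gave no call either. Of 33 such genes without the 3 name starts, 19 were tested and 0 were called in each comparison, with 0 at an unadjusted p under 0.05; their median log2 differences were -0.055 for heme, 0.050 for induction and 0.069 for induction against heme. The matrix chaperones Hspd1 (367 to 411 FPKM) and Hspa9 (225 to 237), the latter the motor of import, were even. So were the porin Vdac1 (124 to 134) and Samm50, which inserts barrel proteins of the outer membrane (54.4 to 59.0). Mtx1, a partner of Samm50, was at 7.25 and 8.77 FPKM in the controls, 7.08 with heme, and 9.30 and 12.3 after induction, a difference of 0.38 ± 0.21. Romo1 was at 36.1 and 36.8 FPKM in the controls, 41.3 with heme, and 40.6 and 40.2 after induction, with no overlap with the controls. Its log2 differences were 0.18 ± 0.0965 for heme and 0.14 ± 0.079 for induction. Dnajc19, a cochaperone of the import motor, was at 13.4 and 8.12 FPKM in the controls and 16.4 with heme (0.60 ± 0.32), and Mpc1, a subunit of the pyruvate carrier, at 13.9 and 25.2 in the controls and 13.0 with heme (-0.50 ± 0.36); in both genes control replicate 2 lay away from control replicate 1.

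In the authors' deposited tables, 3 of the 72 transcripts at member loci had a Benjamini-Hochberg adjusted p under 0.05 for heme, beside 7.24% of all 15113 transcripts, and all 3 are at the Slc25a5 locus. For induction the authors' deposited table has 5 of 72, beside 7.20%: the same 3 transcripts, ENSMUST00000107810 of Tomm5 with a log2 fold change of -5.33, and ENSMUST00000124266 of Slc25a22 with 6.04. The deposited fold changes match replicate 1 against control replicate 1, as given above for transcripts over 5 FPKM. The Tomm5 value thus compares induction with control replicate 1. In control replicate 2 that Tomm5 transcript was at 0.810 FPKM, as in the induction libraries. The Slc25a22 transcript was at 8.18 FPKM in induction replicate 1 but at 0.771 in induction replicate 2, and was listed at 0 in both controls.

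Windows from 250 bases before to 50 after the start, from RefSeq on GRCm38.p6, were matched for 31 of the 35 genes and searched on both strands. A GABP motif (CCGGAAGT), bound by a factor known for genes of mitochondrial proteins, was present in 4 members, all of them import genes or Timmdc1 (Timm10b, Timm23, Timmdc1 and Tomm70a), and in 4.31% of 27025 genes. An NRF1 motif was present in 3 members (Slc25a3, Timm8b and Tomm20) and in 5.19% of genes. The antioxidant response element was present in 4 members (Slc25a3, Slc25a33, Slc25a5 and Tomm20) and in 14.0% of genes. The E-box (CACGTG) was present in 6 members and 8.09% of genes, the CCAAT box in 14 members and 41.1%, the cAMP response element (TGACGTCA) in 1 member and 2.03%, and an ATF4 element (TGATGCAA) in 0 members and 1.03%. Short stretches around 3 of the 4 GABP matches and 1 of the NRF1 matches, that of the abundant carrier Slc25a3, are shown as examples on the strand of the gene; capitals mark the match, which stands in reverse complement in Slc25a3, Timm23 and Timmdc1.
Slc25a3, NRF1 motif, chr10:91124160-91124193: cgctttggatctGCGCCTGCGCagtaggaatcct
Timm23, GABP motif, chr14:32201920-32201951: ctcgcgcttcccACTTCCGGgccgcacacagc
Timmdc1, GABP motif, chr16:38522789-38522820: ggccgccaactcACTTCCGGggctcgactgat
Tomm70a, GABP motif, chr16:57121622-57121653: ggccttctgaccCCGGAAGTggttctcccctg
These matches describe the letters of the windows; binding was not measured. The GABP genes Timm10b, Timm23, Timmdc1 and Tomm70a had induction differences of 0.45 ± 0.24, 0.0034 ± 0.085, 0.15 ± 0.12 and 0.043 ± 0.067, within the range of the import loci that hold no such match.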

How the data were processed

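RNA from C17.2 cells in 3 labelled groups of 2 replicates was sequenced from TruSeq libraries of total RNA, per the labels' protocols. The submitters' processing notes name HISAT2, StringTie, edgeR and the GRCm38 (mm10) build without versions. The authors deposited FPKM and mean coverage per base (a signal) for 15113 transcripts at 7171 loci, and for heme and induction a table of log2 fold changes and p-values. The rule by which these transcripts were chosen is not given, so sums cover listed transcripts only. The p-values of the deposited tables were adjusted here by Benjamini-Hochberg.

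Here FPKM was summed over each locus identifier, loci reaching 1 FPKM in 2 or more libraries were kept (7039; all 34 member loci), and log2(FPKM + 1) was fitted with limma 3.58.1 in R 4.3.3 with an intensity trend, two-sided, adjusted by Benjamini-Hochberg over all loci at 0.05. The fold changes are on that scale and understate those of low genes. All 5 libraries shared 1 spread with 2 residual degrees of freedom; heme is a lone library assumed to vary like the others. Coverage divided by FPKM gave the mapped bases of each library. The fit was also run on simulated data drawn with the spread of the replicate pairs, and its outcome is not given here. The simulated heme library was given that same spread, so the run could not check the assumption made for heme. Named loci were those with the highest level, the smallest p per comparison, the widest spread or a changing leading transcript, and fixed genes of each complex. Roles are background knowledge. The values of 1 member locus are not reported here and not plotted; counts, sums and medians include it. The members and lists were chosen with earlier results of these data known. Alternatives varied the pseudocount (0.1, 5), the filter, the heme columns, the scaling, the replicate block, the summed names, the trend and each replicate; FPKM times length, transcripts in place of loci, the crossed block and medians without the Slc25a5 and Tomm5 loci were added after seeing the data. Of the 66 member transcripts all were found in GENCODE M21 by identifier, 59 with the same coordinates and 52 annotated as protein coding. Exons of 11 member loci overlap another annotated gene, and Slc25a5 has a processed pseudogene, Slc25a5-ps, which may share its reads.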

Additional observations from a re-analysis of the deposited data

How the results depend on the processing

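Treating the multiplied heme column as a library changed most. With all 6 columns, 2 member loci were called with heme (Slc25a5 with Slc25a43, and Tomm5), 1 for induction against heme (Tomm5) and 0 after induction, and 207, 51 and 210 of all loci for heme, induction and induction against heme; the carrier and import medians were 0.22 and 0.20 for heme and -0.23 and -0.15 for induction against heme. With the mean of both heme columns as 1 library they were 0.23 and 0.22, and -0.25 and -0.18, with 0 member loci called. That column is the other one times 1.25 to 1.50, which by construction raises heme.

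In every other alternative fitted on loci the count of member loci called stayed 0. The count of all loci after induction, 1 as reported, was 0 with a pseudocount of 0.1, a pseudocount of 5, no filter and rescaled totals, and 27 without the intensity trend. Leaving out 1 replicate gave 0 of all loci in each comparison; the carrier median ranged from -0.037 to 0.0011 for heme, -0.019 to 0.056 for induction and 0.018 to 0.090 for induction against heme, and the import median from -0.034 to 0.010, 0.030 to 0.12 and 0.044 to 0.11. Leaving out the heme library allows no heme comparison and was not run. A pseudocount of 5 gave a carrier median of -0.032 for heme. FPKM times length gave 0 of all loci in each comparison, with and without control replicate 2; without it the medians were -0.037 (carriers) and 0.029 (import) for heme and 0.075 (carriers) for induction. Fitting transcripts gave 10 calls for heme and 11 for induction against heme.

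Replicate numbers were not shown to pair the samples: over 7039 loci the correlation of control 1 minus 2 with induction 1 minus 2 was -0.051 (Pearson) and -0.17 (Spearman). With the replicate block, all loci called after induction were 2, and the carrier medians were -0.036 for heme and 0.061 for induction against heme; the block called no member. With crossed pairs the counts of all loci were 1, 0 and 1, and the import median for induction against heme was 0.065. Of 102 pairs of member locus and comparison, 35 kept their sign in every alternative. That count includes the alternatives that use the multiplied heme column, which by construction raises heme and can turn a sign. Read counts were not used, so no counting interval is given for a locus, and 2 residual degrees of freedom limit what could be called.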
